A study of Mus musculus with 6 samples.

Results

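The 10 genes described here encode the enzymes that make fatty acids from acetyl-CoA and then lengthen and desaturate them. They were chosen by gene symbol (Acly, Acss2, Acaca, Fasn, Scd1, Scd2, Fads1, Fads2, Elovl5 and Elovl6) from a table of 24589 genes, and all 10 were in the table. RNA-seq was done on primary CD8+ T cells of wild-type mice, the lymphocytes that kill infected and tumour cells. Per the study's methods, the cells were isolated with magnetic beads from spleen and lymph nodes of C57BL/6 mice. Antibodies to CD3 and CD28 activated all of the cells, which then received for 24 h either DMSO (3 libraries), the solvent, or 20 µM trans-vaccenic acid (TVA, 3 libraries), a trans fatty acid that occurs in the milk and fat of ruminants. The study's methods give an age range in weeks for the mice of all its experiments, of both sexes, and the labels give no age. Whether the 3 libraries of a group came from separate animals or cultures is not given in the labels. The p-values therefore measure only the spread between these libraries, which may be technical.

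Cells build saturated fatty acids in the cytosol from acetyl-CoA, which comes from citrate by way of ATP citrate lyase or from acetate by way of an acetyl-CoA synthetase. Acetyl-CoA carboxylase makes malonyl-CoA from it, and fatty acid synthase joins these units into palmitate. Elongases of the ELOVL family then lengthen fatty acyl chains at the endoplasmic reticulum, stearoyl-CoA desaturases introduce the double bond that makes oleate and palmitoleate, and the FADS desaturases add double bonds to polyunsaturated chains. T cells switch this programme on after activation, when dividing cells need new membrane. Transcription factors of the SREBP family are the best known activators of these genes, and unsaturated fatty acids and sterols restrain them.

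Levels are given as TPM (transcript levels scaled to the same total in every library), a unit that corrects for transcript length and can be compared between genes, and differences as log2 changes of TPM + 1 (TVA minus DMSO). Genes with at least 1 TPM in at least 3 libraries were tested with limma, which left 10866 genes, all 10 enzyme genes among them. A gene was called higher or lower at a Benjamini-Hochberg adjusted p under 0.05. TPM keeps no sequencing depth, so the depth is unknown and no counting error is given. A principal component analysis, its first axis with 59.1% of the variance, placed the TVA libraries at 8.80 to 10.8, DMSO replicates 1 and 3 at -18.2 and -12.8, and DMSO replicate 2 at 1.23, nearer the TVA libraries. Counts of called genes in a list are therefore also given without single libraries. With limma, 925 genes (8.51% of those tested) were called, 574 (5.28%) higher and 351 (3.23%) lower with TVA. The balance turned under other scalings, with 292 higher and 462 lower after median-of-ratios scaling and 357 higher and 418 lower after quantile normalization.

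The start regions of 4 of the enzyme genes are shown because 8 of the 10 enzyme genes were higher with TVA and the family is known for shared regulators. RefSeq windows of 250 bases before and 50 bases after a start site were at hand for 7 of the 10 genes (GRCm38.p6). The windows lie at chr11:120824498-120824797 (minus strand) for Fasn, chr2:155517793-155518092 (plus strand) for Acss2, chr9:77917115-77917414 (plus strand) for Elovl5 and chr19:10101454-10101753 (minus strand) for Fads2. Each is printed along the gene's strand, with matches to the searched motifs in capitals.
Fasn: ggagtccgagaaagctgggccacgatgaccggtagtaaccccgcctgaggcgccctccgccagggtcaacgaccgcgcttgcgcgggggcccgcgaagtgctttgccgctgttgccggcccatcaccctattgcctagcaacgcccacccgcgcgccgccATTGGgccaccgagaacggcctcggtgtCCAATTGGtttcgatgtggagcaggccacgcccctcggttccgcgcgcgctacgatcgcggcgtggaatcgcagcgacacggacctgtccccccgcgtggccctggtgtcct
Acss2: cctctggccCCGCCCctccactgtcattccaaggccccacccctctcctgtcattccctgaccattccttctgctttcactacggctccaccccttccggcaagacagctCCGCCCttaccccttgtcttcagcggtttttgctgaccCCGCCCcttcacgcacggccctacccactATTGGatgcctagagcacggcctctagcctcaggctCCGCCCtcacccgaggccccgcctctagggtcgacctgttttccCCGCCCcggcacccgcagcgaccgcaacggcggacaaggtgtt
Elovl5: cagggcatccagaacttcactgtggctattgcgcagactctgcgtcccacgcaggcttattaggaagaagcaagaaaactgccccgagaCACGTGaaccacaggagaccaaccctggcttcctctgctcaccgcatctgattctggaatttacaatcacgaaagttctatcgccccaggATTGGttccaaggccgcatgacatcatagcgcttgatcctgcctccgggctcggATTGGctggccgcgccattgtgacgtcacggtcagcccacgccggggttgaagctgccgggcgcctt
Fads2: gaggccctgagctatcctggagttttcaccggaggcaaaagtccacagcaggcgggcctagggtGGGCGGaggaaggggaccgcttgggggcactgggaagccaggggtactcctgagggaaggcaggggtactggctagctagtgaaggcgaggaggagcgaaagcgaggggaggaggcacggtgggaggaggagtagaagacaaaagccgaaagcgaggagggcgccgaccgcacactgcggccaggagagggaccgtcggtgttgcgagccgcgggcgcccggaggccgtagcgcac
The motifs were searched on both strands in 32851 windows of the same length. The CCAAT box (CCAAT, the site of NF-Y, which binds beside SREBP at many lipid genes) was in 37.4% of all windows. Fasn held 3 of them, at -90, -62 and -59 from the start site, the last pair overlapping, Elovl5 held 2, at -71 and -17, and Acss2 and Acly held 1 each. Positions give the first base of a match in the printed direction, with -1 just before the start site. The GC box (GGGCGG, a site of SP1) was in 35.7% of all windows. It matched 5 times in Acss2, 4 times in Acly and 1 time in Fads2, at -186. The E-box CACGTG was in 7.15% of all windows and, of the 7 windows, in that of Elovl5, at -161. The sterol regulatory element, searched as TCACNCCAC, was in 1.24% of all windows and matched in none of the 7. For so rare a string, no match in 7 windows cannot show that the element is absent, and variants of it were not searched. The windows of Acaca and Elovl6 held none of these motifs. That of Acaca, chr11:84195188-84195487, lies inside the gene, whose annotated start is 84129672. The region around that annotated start was not searched. A match is a description of the sequence only.

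Transcripts of most of the enzyme genes were more abundant with TVA. Of the 10 genes, 8 were higher by limma (adjusted p 0.00265 to 0.0445), 0 were lower and 2, Acly and Fasn, did not pass. The log2 changes ran from 0.06 for Acly to 0.53 for Fads2. Their median was 0.28, against 0.04 over all genes tested, a gap of 0.24. In 9 of the 10 genes, every TVA library lay above every DMSO library, which was so for 27.3% of all genes tested. Scd1 reached the 1 TPM minimum through the TVA libraries alone, so it could enter the test only if it differed. Without it, 7 of 9 genes were higher and the median was 0.24. The calls of 7 of the 8 genes rested on single libraries. Without any single TVA library, 1 of the 10 genes (Scd2) passed and 102 to 125 of all genes did, and without DMSO replicate 3, 3 of the 10 and 294 of all genes passed. With DMSO replicate 1 left out, 8 of the 10 and 945 of all genes passed, with Fasn in and Acss2 out. With DMSO replicate 2 left out, 8 of the 10 and 2242 of all genes passed. In bulk RNA, a change in the number of cells of a type and a change in RNA per cell cannot be told apart.

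**Figure D1:**
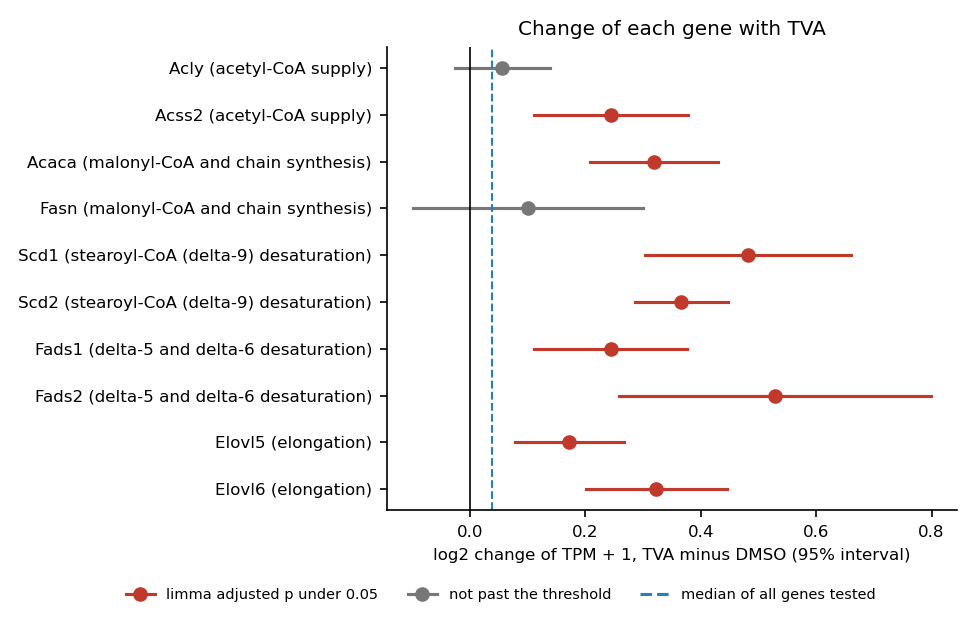
Log2 change of TPM + 1 (TVA minus DMSO) of the 10 enzyme genes, with the 95% interval from limma. Red points had an adjusted p under 0.05, grey points did not, and the dashed line is the median of all genes tested (0.04). All 10 points lie to the right of that line, and the intervals of Acly and Fasn include 0.

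Of the genes for acetyl-CoA supply, Acss2 rose and Acly did not pass. Acly (ATP citrate lyase, which splits citrate exported from mitochondria) was the most abundant of the 10 transcripts, at 134, 134 and 128 TPM in the DMSO libraries and 137, 137 and 139 TPM in the TVA libraries. The groups did not overlap, but the means, 132 ± 3.40 and 137 ± 1.17 TPM (SD, n = 3 libraries each), differed by 3.96%, and limma gave a log2 change of 0.06 (95% interval -0.03 to 0.14, adjusted p 0.31). Acss2 (cytosolic acetyl-CoA synthetase, which uses acetate) was measured at 6.21, 6.48 and 5.86 TPM in DMSO and 7.68, 7.67 and 7.17 TPM in TVA libraries. All 3 TVA libraries exceeded all 3 DMSO libraries. Acss2 rose from 6.18 ± 0.311 to 7.51 ± 0.292 TPM, by 21.4% (a log2 change of 0.24 with SE 0.06, adjusted p 0.0444 by limma). The call was lost, with adjusted p from 0.0552 to 0.178, without DMSO replicate 1 or 3 or any TVA library.

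Of the chain-building enzymes, the carboxylase gene rose and the synthase gene did not pass. Acaca (acetyl-CoA carboxylase 1, the committed step) was at 30.7, 29.8 and 28.3 TPM in DMSO and 35.8, 38.5 and 37.1 TPM in TVA libraries. The groups were well apart. Acaca rose from 29.6 ± 1.25 to 37.1 ± 1.35 TPM, by 25.5% (a log2 change of 0.32 with SE 0.05, adjusted p 0.0137 by limma), and the adjusted p was 0.0513 to 0.0848 without a TVA library. Fasn (fatty acid synthase, the enzyme that makes palmitate) was at 88.5, 72.4 and 69.0 TPM in DMSO and 80.7, 83.8 and 80.5 TPM in TVA libraries. DMSO replicate 1 held the highest Fasn level of all 6 libraries, and the other two DMSO libraries the lowest. The means, 76.6 ± 10.4 and 81.7 ± 1.85 TPM, differed by less than the spread among the DMSO libraries (log2 change 0.10, 95% interval -0.10 to 0.30, limma adjusted p 0.446). Without DMSO replicate 1, the log2 change of Fasn was 0.21 and passed (adjusted p 0.0259), and after correction for GC content it was 0.19 (adjusted p 0.043). The transcripts of Fasn had the highest GC content of the 10 genes, 58.4%, against a median of 50.5% over the genes tested.

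The stearoyl-CoA desaturase genes rose, with Scd2 carrying nearly all of the transcripts. Scd2 (the isoform best known from brain, which makes monounsaturated from saturated chains) was at 61.7, 60.6 and 60.7 TPM in DMSO and 77.7, 80.3 and 78.7 TPM in TVA libraries. Libraries of a group lay within 3 TPM of each other, and the groups lay far apart. Scd2 rose from 61.0 ± 0.594 to 78.9 ± 1.32 TPM, by 29.4% (a log2 change of 0.37 with SE 0.03, adjusted p 0.00265 by limma). Its call held in all 14 alternatives, with adjusted p from 0.00112 to 0.0319. Scd1 (the main isoform of liver and fat) was scarce, at 0.72, 0.59 and 0.70 TPM in DMSO and 1.31, 1.32 and 1.36 TPM in TVA libraries. The groups did not overlap, and the TVA to DMSO ratio of the means was 1.99. Scd1 rose from 0.67 ± 0.07 to 1.33 ± 0.0265 TPM (a change of 0.48 in log2 of TPM + 1, SE 0.08, adjusted p 0.0162 by limma), a scale that understates the change of so low a gene. With every gene above 0 TPM tested, so that no minimum chose it, the adjusted p was 0.0124, and without a TVA library it was 0.0654 to 0.0857. The coding sequences of both genes are close, and reads of Scd2 assigned to Scd1 cannot be told apart from Scd1 transcripts in these values. Scd2 made up 98.9% ± 0.105 of the Scd1 plus Scd2 level with DMSO and 98.3% ± 0.0408 with TVA. The other family members, Scd3 and Scd4, stayed between 0.01 and 0.09 TPM.

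Both FADS desaturase genes rose. Fads1 and Fads2 encode the enzymes that act in turn on polyunsaturated fatty acids on the way to arachidonate, and their genes lie near each other on chromosome 19, 81141 bases apart in GRCm38. Fads1 was at 16.6, 15.4 and 14.4 TPM in DMSO and 18.2, 19.0 and 18.4 TPM in TVA libraries. It rose from 15.5 ± 1.09 to 18.5 ± 0.420 TPM, by 19.4% (a log2 change of 0.24 with SE 0.06, adjusted p 0.0441 by limma). Fads2, the rate-limiting enzyme of that route, was at 4.31, 3.91 and 3.06 TPM in DMSO and 6.52, 5.93 and 5.10 TPM in TVA libraries. It varied more within each group than the other genes of similar level, yet its groups did not overlap. Fads2 rose from 3.76 ± 0.638 to 5.85 ± 0.713 TPM, by 55.6% (a log2 change of 0.53 with SE 0.12, adjusted p 0.0373 by limma), rank 35 from the top of the 10866 log2 changes. Without DMSO replicate 3 or any TVA library, the adjusted p was 0.0921 to 0.177 for Fads1 and 0.0791 to 0.153 for Fads2. Fads3, another family member, was at 0.37 to 0.65 TPM and was not tested.

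Both elongase genes rose as well. Elovl5 (which lengthens polyunsaturated chains) was at 72.8, 68.4 and 72.5 TPM in DMSO and 78.5, 82.2 and 80.5 TPM in TVA libraries. It rose from 71.3 ± 2.44 to 80.4 ± 1.88 TPM, by 12.9% (a log2 change of 0.17 with SE 0.04, adjusted p 0.0445 by limma), the smallest change among the 8 genes that passed. Elovl6 (which turns palmitate into stearate) was at 4.92, 4.81 and 4.83 TPM in DMSO and 6.11, 6.51 and 6.35 TPM in TVA libraries. The DMSO libraries were nearly equal and each TVA library was well above them. Elovl6 rose from 4.85 ± 0.0586 to 6.32 ± 0.201 TPM, by 30.3% (a log2 change of 0.32 with SE 0.05, adjusted p 0.0165 by limma). Without DMSO replicate 3 or any TVA library, the adjusted p was 0.0768 to 0.187 for Elovl5 and 0.0523 to 0.0994 for Elovl6. Elovl1 (which makes very long saturated chains) was the second most abundant elongase, at 60.6 to 68.7 TPM with DMSO and 65.5 to 68.7 TPM with TVA, and did not pass (log2 change 0.04, limma adjusted p 0.624). Elovl5 made up 49.7% ± 1.93 of the summed ELOVL level with DMSO and 51.4% ± 0.399 with TVA, and Elovl6 3.38% ± 0.0664 and 4.05% ± 0.0462. Elovl2, Elovl3 and Elovl4 stayed under 0.5 TPM.

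**Figure D2:**
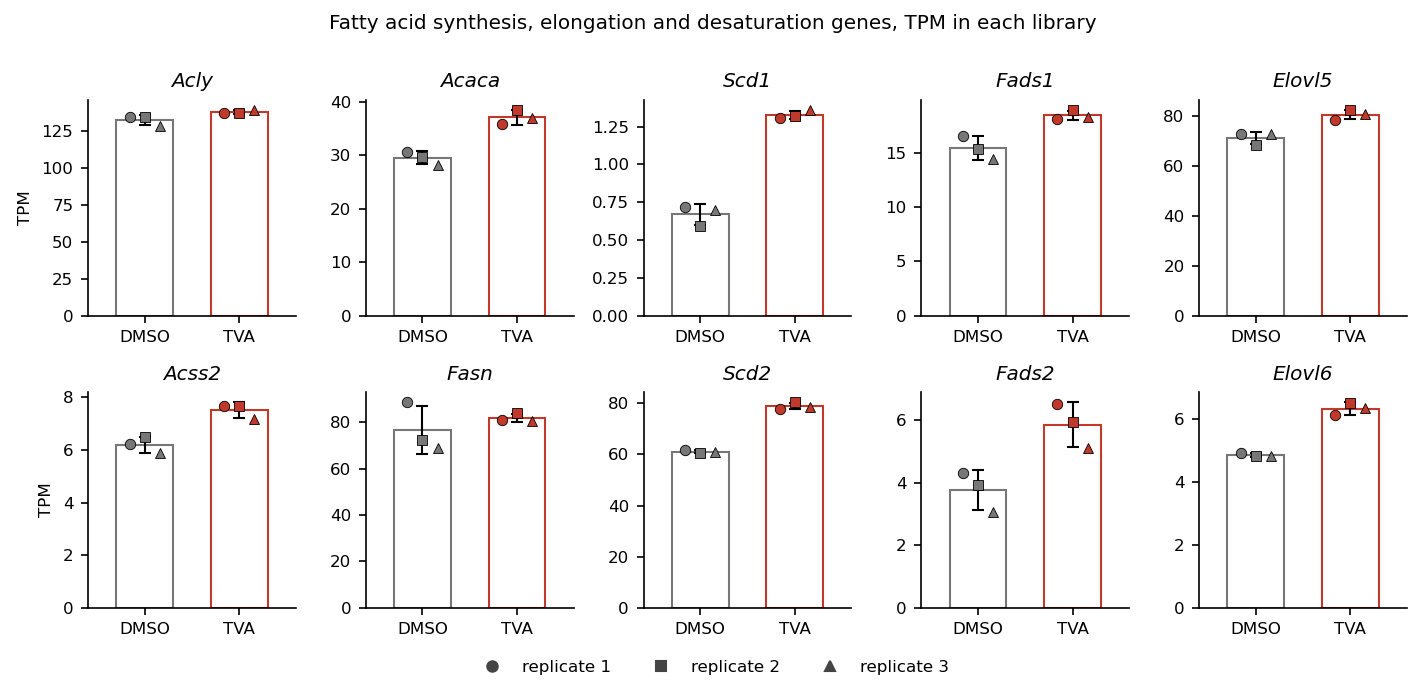
TPM of the 10 enzyme genes in each library (circle, replicate 1; square, replicate 2; triangle, replicate 3), with bars for the mean and error bars for the SD of 3 libraries, each panel on its own axis from 0. TVA points lie above all DMSO points in every panel except that of Fasn, where DMSO replicate 1 is highest.

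The order of the 10 levels was the same in both groups, from Acly through Fasn, Elovl5, Scd2, Acaca, Fads1, Acss2, Elovl6 and Fads2 to Scd1, an order over TPM, which is per length. With DMSO, Fasn and Elovl5 overlapped and the other neighbours did not. With TVA, Scd2 at 78.9 TPM came level with Elovl5 at 80.4 and Fasn at 81.7 TPM, and the libraries of these neighbours overlapped, as did those of Elovl6 and Fads2. The summed level of the 10 transcripts was 421, 396 and 388 TPM in DMSO and 449, 462 and 454 TPM in TVA libraries. Its mean was 402 ± 17.1 with DMSO and 455 ± 6.67 TPM with TVA, and Acly, Fasn, Elovl5 and Scd2 supplied most of it. The genes lie on 5 chromosomes: Acly, Acaca and Fasn on chromosome 11, Scd1, Scd2, Fads1 and Fads2 on chromosome 19, Acss2 on chromosome 2, Elovl5 on chromosome 9 and Elovl6 on chromosome 3. Scd1 and Scd2 were 87590 bases apart.

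The ratio of related enzymes within a library was compared for 5 pairs, and in each the groups did not overlap. How often ratios of other gene pairs separate in this way was not computed. The pairs were drawn from genes chosen with earlier results of these data known. A ratio of TPM does not move with the scaling of a library. The TPM of Fads1 was 3.86, 3.94 and 4.72 times that of Fads2 with DMSO and 2.79, 3.20 and 3.60 times with TVA, so every TVA library had a lower ratio. For Elovl5 over Elovl6, the ratio was 14.7 ± 0.406 with DMSO and 12.7 ± 0.110 with TVA. For Scd2 over Scd1 it was 91.7 ± 9.51 and 59.3 ± 1.48, for Acly over Acss2 21.4 ± 0.628 and 18.3 ± 0.886, and for Fasn over Acaca 2.58 ± 0.256 and 2.20 ± 0.0464. In each pair, the less abundant partner stood higher relative to the other in the TVA libraries. In log2 of TPM + 1, the change was -0.29 for Fads1 against Fads2, 0.15 for Elovl6 against Elovl5, 0.12 for Scd1 against Scd2, 0.19 for Acss2 against Acly and 0.22 for Acaca against Fasn. A two-sided exact permutation test gave p = 0.1 for each pair, and 0.1 after Benjamini-Hochberg adjustment over the 5 pairs, which is the smallest p that 3 against 3 libraries allow. This test therefore cannot pass 0.05 here. Without DMSO replicate 1 the change of Acaca against Fasn was 0.14, and with a pseudocount of 0.1 that of Scd1 against Scd2 was 0.53.

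Of the 9 regulators of these enzymes that were tested, Insig1 rose and the other 8 did not pass. Insig1, which retains the SREBP escort protein in the endoplasmic reticulum and is itself a target of SREBP, was at 50.4, 47.1 and 50.6 TPM in DMSO and 58.5, 57.7 and 58.2 TPM in TVA libraries. It rose from 49.4 ± 1.95 to 58.1 ± 0.418 TPM (a log2 change of 0.23 with SE 0.04, adjusted p 0.021 by limma), with an adjusted p of 0.0889 to 0.111 without a TVA library. Srebf1, which encodes SREBP1, the family member most tied to fatty acid genes, was at 43.4, 35.3 and 33.5 TPM in DMSO and 36.9, 36.6 and 36.2 TPM in TVA libraries. The TVA libraries fell inside the range of the DMSO libraries (log2 change -0.02, 95% interval -0.23 to 0.18, limma adjusted p 0.882). Srebf2, which encodes the sterol-linked SREBP2, was at 115, 91.7 and 93.6 TPM in DMSO and 101, 97.2 and 97.2 TPM in TVA libraries (log2 change -0.02, interval -0.21 to 0.17, adjusted p 0.898). Scap, the escort protein gene, was at 53.2, 44.6 and 43.8 TPM with DMSO and 45.4 TPM in each TVA library (log2 change -0.05, interval -0.22 to 0.12, adjusted p 0.659). Nr1h2, which encodes the oxysterol receptor LXR beta, was at 58.1, 43.0 and 41.5 TPM in DMSO and 44.1, 44.4 and 42.6 TPM in TVA libraries (log2 change -0.10, interval -0.37 to 0.16, adjusted p 0.565). For these 4 genes DMSO replicate 1 was the highest of the 6 libraries, as it was for Fasn, and their GC content was 56.7 to 60.8%. Without DMSO replicate 1, their changes turned positive, at 0.09 for Srebf1, 0.09 for Srebf2, 0.04 for Scap and 0.05 for Nr1h2, and none passed (limma adjusted p 0.137 to 0.455). The other regulators tested, Insig2, Mbtps1, Mbtps2 and Mlx, had positive log2 changes of 0.12, 0.02, 0.10 and 0.10. Their limma adjusted p was 0.163, 0.745, 0.175 and 0.148. Of these, only Mbtps1 overlapped between the groups. Nr1h3 (LXR alpha) was at 0.19 to 0.79 TPM and Mlxipl (ChREBP, the glucose-linked activator of these genes) at 0.01 to 0.05 TPM, and neither was tested.

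**Figure D3:**
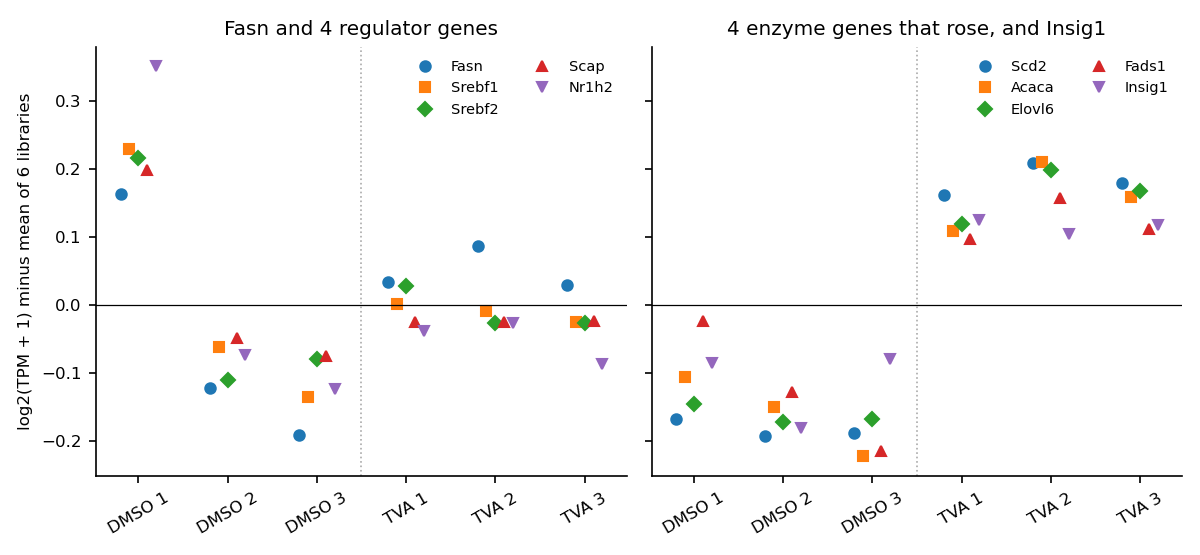
Deviation of log2(TPM + 1) from the mean of the 6 libraries for Fasn and 4 regulator genes (left) and for Scd2, Acaca, Elovl6, Fads1 and Insig1 (right). On the left DMSO replicate 1 is the highest library for each gene, and on the right all TVA points lie above 0 and all DMSO points below.

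Other genes of the pathway were taken from a list of 49, of which 48 were in the table and 35 were tested. Of the 35, 1 was higher (Insig1) and 0 were lower, that is 2.86% higher against 5.28% of all genes, with a median log2 change of 0.07. The count rested on single libraries. Without any single TVA library it was 0, beside 102 to 125 of all 10866 genes. Without DMSO replicate 1 it was 3 (Insig1, Hsd17b12 and Mlycd, all higher), beside 945 of all genes. Without DMSO replicate 2 it was 6 (Insig1 and Tecr higher, Hacd1, Hacd2, Ndufab1 and Slc25a1 lower). In that setting 2242 of all genes were called, 1223 higher and 1019 lower. The pathway genes described next were named after their values were seen and include the partners of the elongases. Hsd17b12, the ketoacyl reductase of the elongation cycle, was at 142, 138 and 140.3 TPM in DMSO and 151, 159 and 154 TPM in TVA libraries, without overlap (log2 change 0.14, limma adjusted p 0.0541). Tecr, the last reductase of that cycle, was at 84.2, 86.7 and 77.5 TPM in DMSO and 87.4, 99.6 and 94.8 TPM in TVA libraries (log2 change 0.18, adjusted p 0.0979). Hacd1, a dehydratase of the cycle, was at 14.7, 8.46 and 14.6 TPM in DMSO and 6.23, 8.33 and 8.70 TPM in TVA libraries (log2 change -0.61, adjusted p 0.0947), with DMSO replicate 2 among the TVA values. Ndufab1, the mitochondrial acyl carrier protein, was at 260.4, 113 and 292 TPM in DMSO and 125, 127 and 126 TPM in TVA libraries, so that DMSO replicate 2 was lower than every TVA library while the other two were far above (log2 change -0.70, adjusted p 0.168). The NADPH-supplying genes Idh1, G6pdx and Pgd, which furnish the reducing power for synthesis, did not pass (log2 changes 0.05 to 0.18, adjusted p 0.159 to 0.587). Thrsp, a lipogenic factor of liver and fat, and Olah, the thioesterase of mammary gland, were listed at 0 in every library, and Me1 and Acacb, abundant in lipogenic tissue, stayed under 1 TPM.

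Genes of related lipid routes from lists of the same kind moved to differing degrees. Of 21 genes of cholesterol synthesis and LDL uptake tested, 11 were higher and 0 lower, with a median log2 change of 0.21, and 0 passed without any single TVA library, 4 without DMSO replicate 3 and 12 to 13 without DMSO replicate 1 or 2. Of 18 tested genes of mitochondrial fatty acid oxidation, 7 were higher and 1, Cpt1c, was lower, with a median of 0.13, and 4 passed without any single TVA library, 5 without DMSO replicate 3 and 8 to 9 without DMSO replicate 1 or 2, all higher. The 10 synthesis, elongation and desaturation genes stood at 8 higher and 0 lower with a median of 0.28, and all genes tested at 5.28% higher and 3.23% lower with a median of 0.04. Of all 10866 genes tested, 102 to 125 passed without any single TVA library and 294 without DMSO replicate 3. Without DMSO replicate 1 it was 945 genes, and without DMSO replicate 2 it was 2242. These counts come from the same 6 libraries and no test of the difference between lists was made.

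The genes whose pattern over the 6 libraries was most like the mean of the 10 enzyme genes included Tnfrsf9, Cdc25c, Odc1 and Ankrd44, with Pearson correlations of 0.996, 0.996, 0.996 and 0.995 among 8927 genes of at least 5 TPM on average. These are descriptions over 6 libraries that share the group difference. The mean deviation of the 10 genes was -0.07, -0.15 and -0.20 in the DMSO libraries and 0.14, 0.17 and 0.12 in the TVA libraries, so DMSO replicate 1 lay nearest and DMSO replicate 3 farthest from the TVA group. Tnfrsf9, which encodes the costimulatory receptor 4-1BB, was at 338, 321 and 308 TPM in DMSO and 400.5, 411 and 408 TPM in TVA libraries (log2 change 0.33, limma adjusted p 0.00776). Cdc25c, a mitotic phosphatase gene, and Ankrd44 were also higher (log2 changes 0.26 and 0.17, adjusted p 0.0322 and 0.0426), and Odc1, the first enzyme of polyamine synthesis, did not pass (0.12, adjusted p 0.0743). Without a TVA library the adjusted p of these 4 genes was 0.0475 to 0.249.

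Markers of the labelled cell type were abundant. The summed TPM of 7 CD8 T cell genes, Cd8a, Cd3e and Gzmb among them, was 4879 to 5201 with DMSO and 5163 to 5264 with TVA, and most of it was Gzmb. Of the 7, Cd3g was called higher (309 ± 6.59 to 377 ± 3.15 TPM, limma adjusted p 0.00627). The 2 CD4 T cell genes summed to 4.09 to 5.27 TPM and 5 B cell genes to 10.7 to 14.9 over all 6 libraries. The NK cell pair, Ncr1 and Klrb1c, summed to 0.23 to 0.85, and 3 globin genes of red cells to 15.9 to 28.9 with DMSO and 9.10 to 23.3 with TVA. Of these, Hbb-bt was called lower (4.43 ± 0.196 to 2.42 ± 0.442 TPM, limma adjusted p 0.0121). The sum of 6 myeloid genes moved with the groups, at 40.7 to 44.4 with DMSO and 54.2 to 55.8 with TVA. None of the 6 was at 0, and of the 5 tested, Lyz2 was called higher (30.3 ± 1.18 to 39.7 ± 1.63 TPM, log2 change 0.38, limma adjusted p 0.00757). Myeloid cells also express the enzyme genes described here, and their part in the changes was not tested. Of 4 adipocyte markers, Plin1 and Lep were at 0 in every library and all 4 together reached at most 0.34 TPM. Over all genes tested, the log2 change had a Spearman correlation of -0.40 with transcript GC content (genes are not independent). The enzyme genes ranged from 47.0% (Elovl5) to 58.4% (Fasn), and after GC correction 8 of the 10 still passed, with Fasn in and Elovl5 (adjusted p 0.0714) out.

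The number of enzyme genes past the threshold under each way of processing the data is shown in the map of adjusted p-values. The log2 change of every enzyme gene tested was positive and above the median of all genes in all 15 settings. Scd2 passed in all of them, Acaca in all but those without a TVA library, and Acss2 and Elovl5 each lost the call in 9.

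**Figure D4:**
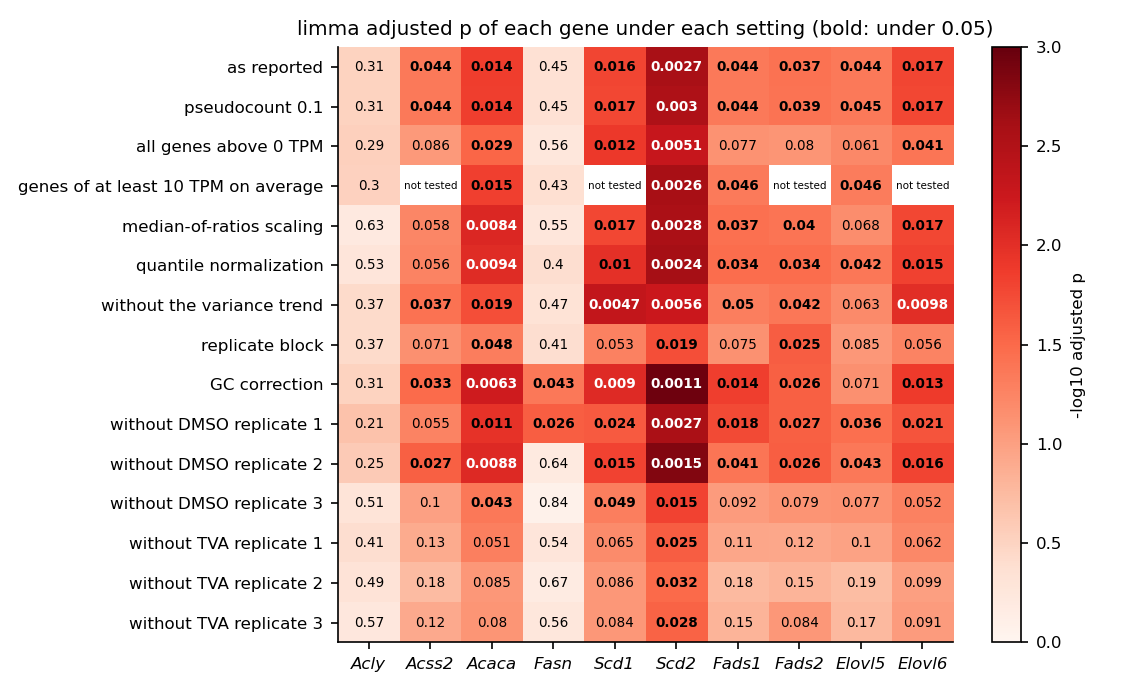
Limma adjusted p of each enzyme gene (columns) as reported and under 14 alternatives (rows), printed in each cell and shaded by its negative log10, with values under 0.05 in bold and genes outside a filter marked as not tested. The Scd2 column is bold in every row and the Acly column in none, and the 3 rows without a TVA library are bold for Scd2 alone.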

How the data were processed

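RNA-seq libraries of mouse CD8+ T cells, 3 with DMSO and 3 with TVA, were grouped by sample title, and columns of the table were matched to libraries by the description field. TPM values per gene symbol were deposited by the authors. The submitters' processing notes name STAR, RSEM and mm10, and versions and annotation are not given in the sources used here. The SMARTER mRNA-Seq kit was used, per the labels. TPM keeps no depth, so precision is known only from the spread of 3 libraries.

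Log2(TPM + 1) of genes with at least 1 TPM in at least 3 libraries was compared with limma 3.58.1 (R 4.3.3; trend, two-sided, no replicate block), with Benjamini-Hochberg adjustment over all 10866 genes and a threshold of 0.05. Ratios between enzymes were compared with exact permutation tests.

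The enzyme genes and all lists were chosen with earlier results of these data known. Named were all 10 enzyme genes, genes of the pathway list past the threshold, 7 regulators of the pathway, and the 5 genes most correlated with the enzymes' mean, 1 of which is not reported here. Others were named after their values were seen. The symbol Hsd17b8 was not found in the table.

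GENCODE vM21 supplied gene positions and GC content, taken as the median of each gene's transcripts (97.4% of tested genes). Results were recomputed with a pseudocount of 0.1, all genes above 0 TPM, genes of at least 10 TPM on average, median-of-ratios scaling, quantile normalization, no variance trend, a replicate block, a GC correction (loess, span 0.5, within each library) and omission of each of the 6 libraries. The same settings were counted for the cholesterol and oxidation lists after seeing the data. Figures were drawn with matplotlib 3.10.9.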

Additional observations from a re-analysis of the deposited data

How the results depend on the processing

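The total of genes called, 925 as reported, was 494 with all genes above 0 TPM tested, 608 with a mean of at least 10 TPM required, 218 with a replicate block and 102 to 2242 without single libraries (the highest without DMSO replicate 2). The share of calls that were higher with TVA was 62.1%, 46.1% after quantile normalization and 38.7% with median-of-ratios size factors. The number of enzyme genes called, 8, became 4 with all genes above 0 TPM, 4 of the 6 tested at 10 TPM or more, 3 with the replicate block and 1 to 8 without single libraries. It was 7 after quantile normalization, 6 with median-of-ratios size factors, 7 without the variance trend, and 8 with a pseudocount of 0.1 or GC correction. Filters and omissions change the number of genes or libraries tested by construction, and other causes were not tested. The median change of the enzyme genes over that of all genes, 0.24, was 0.16 with genes of at least 10 TPM, where 6 of the 10 remained, and 0.22 to 0.26 without single libraries. The pathway list had 1 gene called, 0 with the replicate block, 2 after GC correction (Insig1 and Mlycd) and 0 to 6 without single libraries. Of the cholesterol list, 1 gene was called with the replicate block, 6 with all genes above 0 TPM and 15 after GC correction. For the oxidation list these counts were 5, 6 and 7, and for all genes 218, 494 and 1124. The 4 regulators with a negative change turned positive after GC correction: Nr1h2 (0.078), Scap (0.0024), Srebf1 (0.11) and Srebf2 (0.061). Without single libraries they ranged from -0.19 to 0.048, -0.099 to 0.038, -0.095 to 0.088 and -0.076 to 0.086, positive only without DMSO replicate 1, and the cause was not tested. Replicate numbers are shared between the groups, but deviations of same-numbered libraries correlated at 0.157, 0.0348 and -0.0767, so the numbers were not taken as pairs. Under the block Scd2, Acaca and Fads2 passed. Over the alternatives, 136 values of the enzyme genes' changes gave 0 reversals, 41 lost calls and 2 gained calls (both Fasn). The 5 pair ratios kept their direction with a pseudocount of 0.1 and without each library, where the Scd1 against Scd2 change was 0.53 and 0.09 to 0.13. The unknown depth limits what can be said of Scd1 and other genes near 1 TPM.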
